A study of Mus musculus with 18 samples.

Results

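The 10 transcripts described here encode enzymes and partners that place or remove methyl groups on histone H3: the Polycomb subunits Ezh2, Eed and Suz12, the H3K9 methylation factors Suv39h1, Setdb1 and Trim28, the H3K4 demethylases Kdm1a and Kdm5b, and the H3K27 demethylases Kdm6a and Kdm6b. In mm9 (GENCODE vM1 gene bounds) the genes lie at chr6:47480273-47545340 (Ezh2), chr7:97103166-97129493 (Eed), chr11:79806608-79847625 (Suz12), chrX:7638297-7651886 (Suv39h1), chr3:95127447-95161124 (Setdb1), chr7:13609501-13616384 (Trim28), chr4:136106455-136158638 (Kdm1a), chr1:136456748-136529454 (Kdm5b), chrX:17739701-17857062 (Kdm6a) and chr11:69212010-69227177 (Kdm6b). They were chosen by name, as 10 of the 26823 RefSeq transcripts counted in each embryo, and every one of them had counts in all 18 embryos. The embryos were single mouse embryos at the 2-cell stage, of the 129SVE strain. Wild-type fathers 1, 2 and 3 and Parg(110)-/- fathers 6, 7 and 8 gave 3 embryos each, so that 9 embryos of wild-type fathers (the wild-type group) were compared with 9 of Parg(110)-/- fathers (the Parg group). Parg(110)-/- males lack the large isoform of poly(ADP-ribose) glycohydrolase, the enzyme that degrades poly(ADP-ribose). All mothers were wild-type 129SVE females mated naturally, so embryos of Parg(110)-/- fathers carry 1 disrupted paternal allele and a maternal wild-type allele. Embryos are named by father and number (6-2 is embryo 2 of father 6), and the embryos of 1 father share that father. The labels do not say which mother bore which embryo.

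Polycomb repressive complex 2 methylates lysine 27 of histone H3 (H3K27): Ezh2 is its catalytic subunit, and Eed and Suz12 are the core subunits without which the catalytic subunit is inactive. Suv39h1 and Setdb1 methylate lysine 9 of histone H3 (H3K9), and Trim28 brings Setdb1 to DNA through zinc finger proteins. Kdm1a and Kdm5b remove methyl groups from lysine 4 (H3K4), and Kdm6a and Kdm6b remove them from H3K27. In the 2-cell mouse embryo the histones of the paternal and maternal genomes are being remodelled, the embryonic genome is being switched on, and many transcripts were inherited from the egg. The comparison asked whether transcripts of this machinery differed when the father's sperm carried altered histones.

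Each library held between 2852858 and 13355161 counts in the wild-type group and between 3560501 and 12497060 in the Parg group. Levels are given as CPM, the counts per 1000000 counts of the library, which are not corrected for transcript length. All 11 listed markers of genome activation at the 2-cell stage and all 14 oocyte markers had counts, with summed levels of 124 to 293 CPM (activation) and 1018 to 1684 CPM (oocyte) in the wild-type group, and 57.9 to 321 and 878 to 2312 CPM in the Parg group. Of the 8 sperm markers, Prm1, Tnp1, Tnp2, Odf1 and Spata18 were at 0 in every embryo, and the list summed to at most 6.14 CPM. Of the 10 markers of cumulus and granulosa cells, Amh, Foxl2, Fshr and Tnfaip6 were at 0 in every embryo. That list's sum of 205 to 636 CPM came mostly from Nr5a2, which was at a mean of 354 and 357 CPM in the 2 groups and which early embryos also express. The 9 matched markers of oviduct and somatic cells summed to 65.5 to 244 CPM in the wild-type group and 32.9 to 504 CPM in the Parg group. Within it the oviduct glycoprotein gene Ovgp1 had 4093 counts (428 CPM) in embryo 6-2 and 1242 in embryo 6-3, against at most 2.77 CPM in the wild-type group. Of the 9, Ovgp1, Krt18 and Ptprc had a higher mean in the Parg group and the other 6 a lower one, among them Epcam (92.2 and 63.1 CPM in the wild-type and Parg groups), Pecam1 (32.2 and 8.48 CPM) and Vim (0.592 and 0 CPM). Later-lineage markers summed to at most 22.8 CPM, with Sox17 at 0. Parg itself (NM_011960) was at 74.7 ± 32.1 CPM in the wild-type group and 46.4 ± 18.3 CPM in the Parg group (SD, n = 9 each), with a log2 fold change of -0.67 ± 0.34 (SE, edgeR adjusted p = 0.872). This level is no check of the labels, since the fathers' disruption concerns 1 isoform and the embryos carry a maternal copy and maternal mRNA. In these whole embryos, fewer copies made and fewer copies inherited from the egg cannot be told apart.

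The promoters of 9 of the 10 genes were in the RefSeq promoter table (build GRCm38.p6), which held none for Kdm6b. For each, the 250 bases before the annotated start matched the mm9 genome at a single place. The 4 shown here are those of the 2 members with the smallest and the 2 with the largest relative spread between embryos (coefficient of variation, the SD divided by the mean, over 18 embryos). Capitals mark the GC box GGGCGG, or CCGCCC on the other strand, a sequence bound by Sp1-type factors.
Suz12: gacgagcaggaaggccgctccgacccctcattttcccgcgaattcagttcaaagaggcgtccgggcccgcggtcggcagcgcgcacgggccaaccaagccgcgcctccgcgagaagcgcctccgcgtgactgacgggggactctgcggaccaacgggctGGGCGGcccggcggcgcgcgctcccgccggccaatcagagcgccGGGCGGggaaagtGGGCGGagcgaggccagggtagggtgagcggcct
Kdm5b: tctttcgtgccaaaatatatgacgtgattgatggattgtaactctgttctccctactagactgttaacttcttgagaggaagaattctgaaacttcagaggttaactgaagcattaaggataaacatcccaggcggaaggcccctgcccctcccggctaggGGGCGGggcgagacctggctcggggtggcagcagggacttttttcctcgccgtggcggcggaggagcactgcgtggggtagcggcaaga
Eed: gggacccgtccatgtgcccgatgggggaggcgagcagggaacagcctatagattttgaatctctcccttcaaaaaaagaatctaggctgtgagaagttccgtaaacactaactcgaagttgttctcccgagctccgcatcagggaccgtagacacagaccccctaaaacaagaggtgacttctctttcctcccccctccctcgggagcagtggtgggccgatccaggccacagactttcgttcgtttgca
Kdm1a: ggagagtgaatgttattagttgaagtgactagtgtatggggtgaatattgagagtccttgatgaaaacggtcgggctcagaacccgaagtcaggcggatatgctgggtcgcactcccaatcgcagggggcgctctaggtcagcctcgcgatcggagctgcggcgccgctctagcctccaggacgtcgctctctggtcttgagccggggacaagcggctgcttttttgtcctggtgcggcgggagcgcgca

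In mm9 these windows lie at chr11:79806358-79806607 on the plus strand (Suz12), chr1:136456505-136456754 on the plus strand (Kdm5b), chr7:97129487-97129736 on the minus strand (Eed) and chr4:136158639-136158888 on the minus strand (Kdm1a). The Suz12 window held 3 GC boxes and the Kdm5b window 1, and those of Eed and Kdm1a held none. The other members followed no such order, with 2 boxes for Trim28 (coefficient of variation 52.7%), 1 for Kdm6a (54.6%) and none for Ezh2 (43.1%). Over the members, 7 of 10 windows (Suv39h1 has 2 starts) held a GC box, against 32.7% of 32851 promoter windows of the same length. No member window held TATAAA on either strand, which 12.4% of all windows did. The member windows held 11 to 37 CpG dinucleotides, against a median of 6 over all windows, and Suz12 had the most. These matches describe the letters of the windows and no factor's binding was measured.

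Per length, the transcripts fell into an abundant and a scarce group relative to each other. The split depends on the division by length: by CPM, Kdm6b (mean 185) was near Ezh2 (221) and Eed (241). Among all transcripts tested, the mean CPM of Kdm6b was at percentile 92.7 and that of Suv39h1, the lowest member, at percentile 65.4. Divided by the length of the longest coding transcript in GENCODE vM1, the mean level over 18 embryos was 146 ± 35.6 CPM per kb (SD) for Kdm5b, 117 ± 74.4 for Eed, 99.2 ± 23.2 for Suz12 and 83.3 ± 35.9 for Ezh2. The other 6 were lower: Kdm6b at 27.8 ± 10.1, Setdb1 at 18 ± 6.14, Trim28 at 12 ± 6.30, Kdm6a at 8.68 ± 4.74, Kdm1a at 8.27 ± 6.64 and Suv39h1 at 7.11 ± 3.23 CPM per kb. In 17 of 18 embryos the lowest of the first 4 was above the highest of the other 6. Within the abundant group neighbours did not differ beyond their spread: Kdm5b was above Eed in 12 embryos, Eed above Suz12 in 8 and Suz12 above Ezh2 in 11. Among the scarce, Kdm6b was above Setdb1 in 14 embryos and Setdb1 above Trim28 in 15. Trim28 was above Kdm6a in 11, Kdm6a above Kdm1a in 9 and Kdm1a above Suv39h1 in 11, so the last 4 had no fixed order. Ezh2, Eed and Suz12 of Polycomb repressive complex 2 were thus in the abundant group, and both H3K27 demethylases in the scarce one. Other subunits of the complex were not ranked per length.

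**Figure D1:**
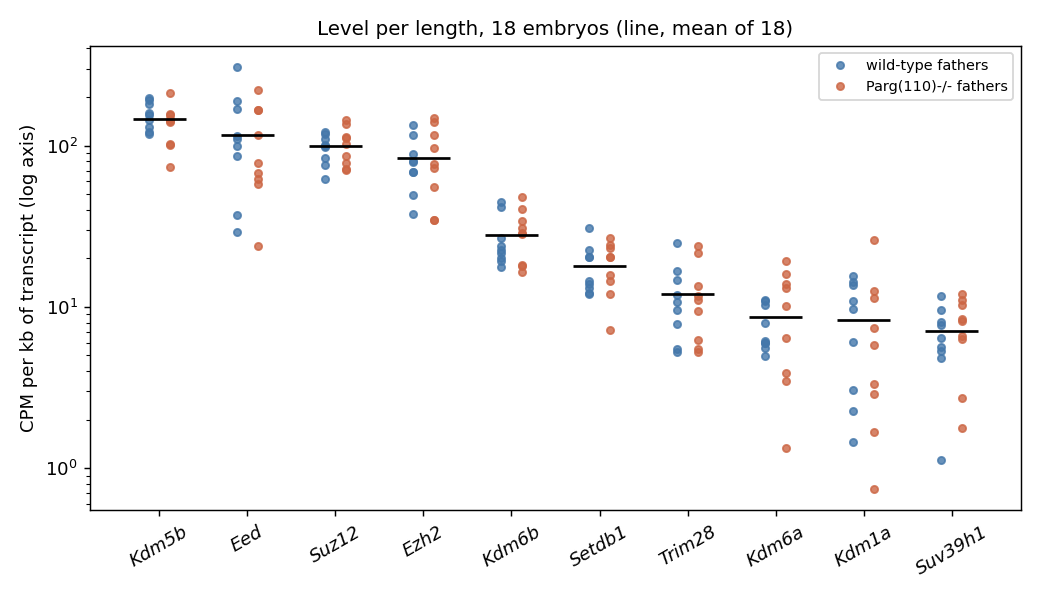
Level of each transcript in CPM per kb of transcript (vertical, log axis) for the 10 genes in order of their mean, with 1 point per embryo (blue, embryos of wild-type fathers, orange, embryos of Parg(110)-/- fathers) and a line at the mean of 18. Kdm5b, Eed, Suz12 and Ezh2 stand above the other 6, and points of both groups overlap in every gene.

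No member passed the test between the 2 groups of embryos. In edgeR's quasi-likelihood test over the 15333 transcripts that reached 10 counts in 3 or more embryos, 0 of 10 members passed an adjusted p of 0.1, and so did 0 of all transcripts (0%). At an unadjusted p below 0.05 the count was 0 of 10 members, against 889 transcripts (5.8%). DESeq2 called 38 transcripts (0.248%) and no member, and limma called none. The members' log2 fold changes (Parg over wild-type) ran from -0.24 (Eed) to 0.35 (Kdm6a), with a median of 0.06 beside -0.02 over all transcripts tested; 7 were above 0 and 3 below. Adjusted p-values lay between 0.971 and 1.00. In an exact two-sided permutation of the 18 embryos the smallest p of any member was 0.227 (Kdm5b), and in one of the 6 fathers, which cannot go below 0.1, it was 0.5.

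The 95% intervals set how large a difference these embryos would allow. They were narrowest for Kdm5b, from -0.57 to 0.22 on the log2 scale, and for Suz12, from -0.33 to 0.49. For Kdm1a the interval ran from -1.33 to 1.18 and held a change of 1 log2 unit in either direction. It held a rise of that size for Suv39h1 (-0.83 to 1.14) and Kdm6a (-0.51 to 1.21) and a fall of that size for Eed (-1.08 to 0.60). The p-values and intervals treat embryos of 1 father as independent. For 9 of 10 members the log2 level varied more between embryos of 1 father than between father means. Kdm5b was the exception, with an SD of 0.346 between father means and 0.234 within fathers. Its interval may therefore be too narrow.

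**Figure D2:**
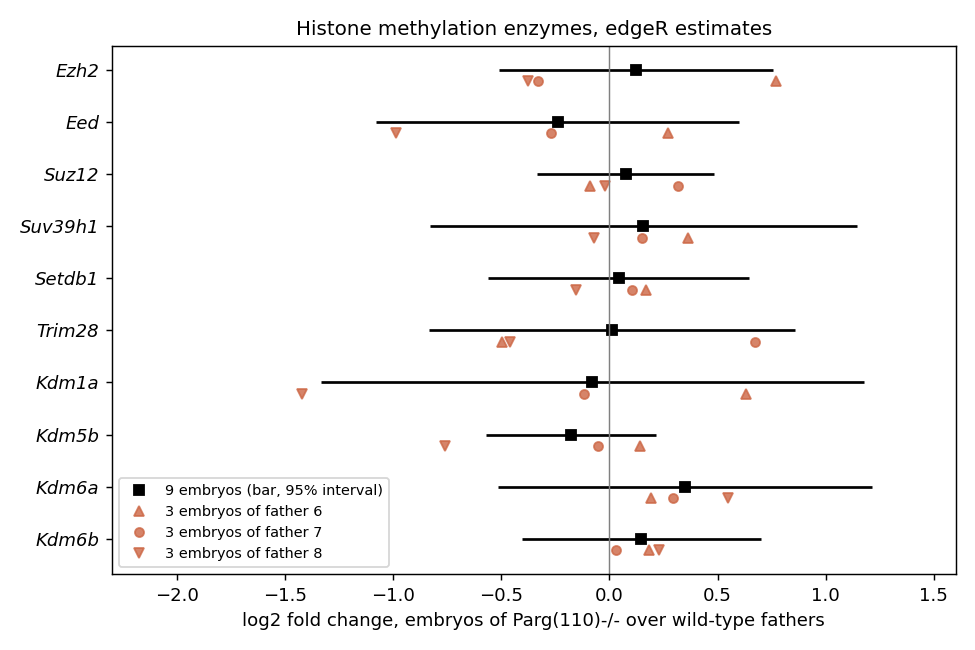
Log2 fold change of each member (horizontal) as estimated by edgeR, with black squares for 9 embryos of Parg(110)-/- fathers against 9 of wild-type fathers, bars for the 95% interval, and orange symbols for the 3 embryos of father 6, 7 or 8 against the same 9. All 10 bars cross 0, and the 3 family estimates are farthest apart for Kdm1a, Eed, Trim28 and Ezh2.

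Among the Polycomb subunits, Suz12 (NM_199196) was the steadiest. Its lowest, median and highest level was 273, 438 and 533 CPM in embryos of wild-type fathers and 308, 448 and 631 CPM in embryos of Parg(110)-/- fathers. The groups overlapped, with only embryo 7-3 and embryo 7-1 above the wild-type range. The log2 fold change was 0.08 ± 0.20 (SE, edgeR adjusted p = 0.996), and the coefficient of variation over 18 embryos was 23.4%.

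Ezh2 (NM_007971) lay at 100.2, 210.0 and 354 CPM (lowest, median, highest) in the wild-type group and at 91.3, 204 and 394 CPM in the Parg group. In the Parg group 2 embryos (7-3 and 8-1) were below the wild-type range and 2 (6-1 and 6-2) above it. The 3 embryos of father 6, at 308 to 394 CPM, were all above the wild-type mean of 213 CPM, and the 3 of father 8, at 91.3 to 204 CPM, were all below it. All 3 embryos of father 6 were above that mean for 7.32% of all transcripts tested and for 1 of 10 members. All 3 of father 8 were below it for 33.8% of transcripts. The overall log2 fold change was 0.12 ± 0.31 (SE, edgeR adjusted p = 0.996).

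Eed (NM_021876) varied most among the 3 subunits. Its levels were 60.5, 226 and 633 CPM in the wild-type group and 49.5, 162 and 455 CPM in the Parg group. The highest embryo, 3-2, and the lowest, 8-3, differed 12.8-fold, and the counting intervals around them (616 to 652 and 44.5 to 54.9 CPM, exact binomial, 95%) are far apart. Both extremes of low level in the wild-type group, 76.1 and 60.5 CPM, were embryos of father 1, whose other embryo had 349 CPM. The log2 fold change was -0.24 ± 0.41 (SE, edgeR adjusted p = 0.980). Per kb, the ratio of Eed to Ezh2 ran from 0.276 in embryo 1-1 to 8.12 in embryo 3-2. Its medians were 1.45 in the wild-type and 1.18 in the Parg group. The ratio of Suz12 to Ezh2 had a narrower range, from 0.474 in embryo 6-2 to 4.15 in embryo 7-3. The measured ratios thus varied between embryos, and the part of amplification in them was not tested. The counting intervals cover counting error only, since the cDNA of each embryo was amplified before it was counted.

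**Figure D3:**
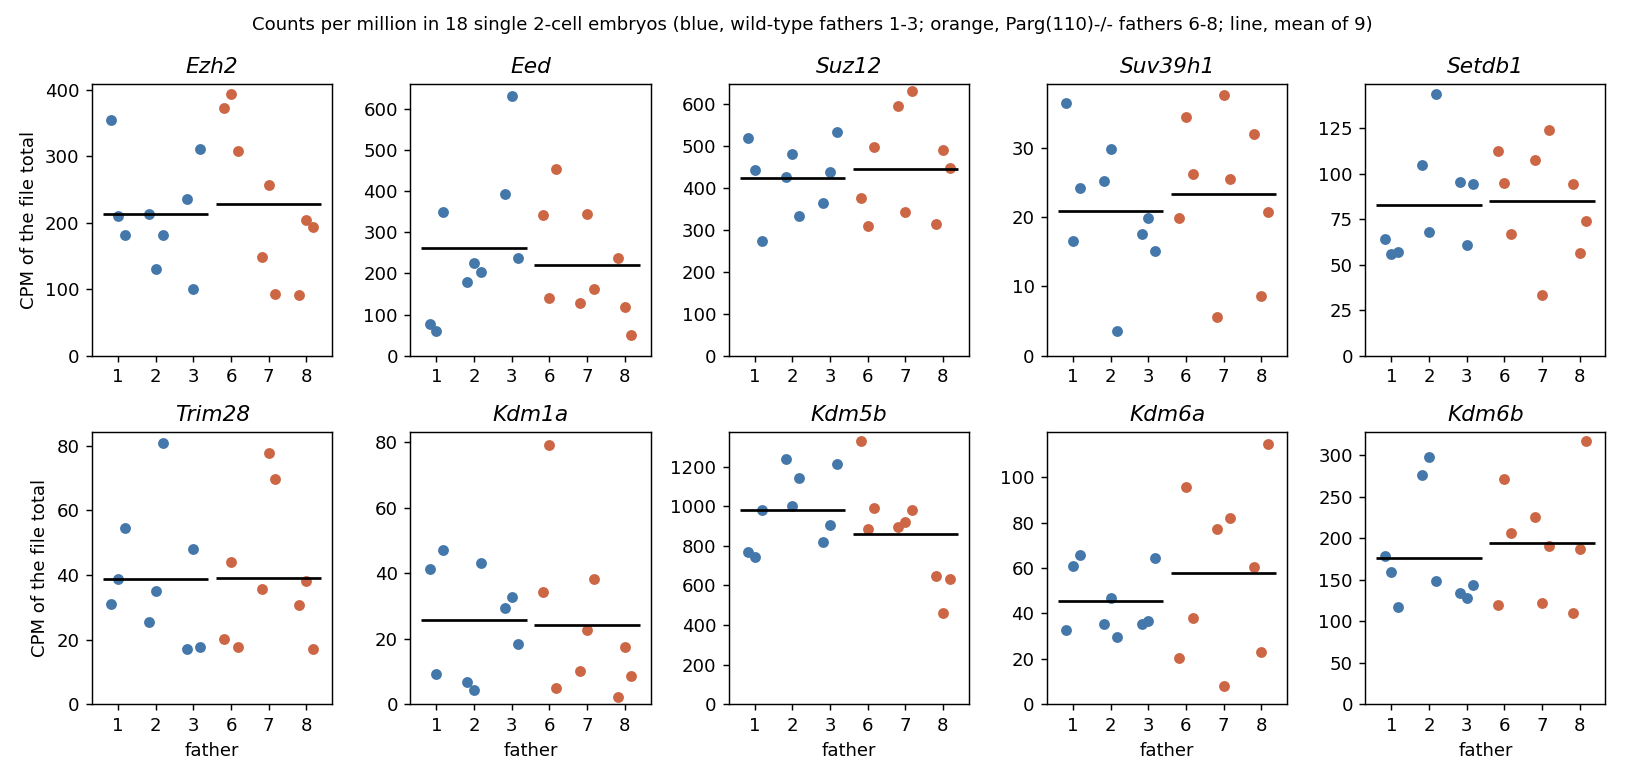
CPM of the library total (vertical, from 0) of the 10 members in each embryo, by father (horizontal), in blue for wild-type fathers 1 to 3 and orange for Parg(110)-/- fathers 6 to 8, with a line at the mean of 9 embryos. The groups overlap for every gene; the 3 embryos of father 8 are the lowest for Kdm5b, and Kdm6a has a wider range under Parg(110)-/- fathers (7.90 to 114 CPM) than under wild-type fathers (29.4 to 65.7 CPM).

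The H3K9 methylation factors had log2 fold changes of 0.01 to 0.16. Setdb1 (NM_018877), a methyltransferase that silences retroelements with Trim28, was at 55.9, 67.8 and 144 CPM (lowest, median, highest) in the wild-type group and at 33.5, 94.4 and 124 CPM in the Parg group. Only embryo 7-2 was below the wild-type range and none was above it (log2 fold change 0.04 ± 0.29, SE, edgeR adjusted p = 1.00). Trim28 (NM_011588), the co-repressor, was at 17.0, 35.01 and 81.0 CPM and at 17.0, 35.7 and 77.7 CPM, with means of 38.7 and 39.0 CPM. Its range was nearly the same in both groups, and the log2 fold change was 0.01 ± 0.41 (SE). Suv39h1 (NM_011514), the methyltransferase of pericentric heterochromatin and an X-linked gene, was the scarcest member at 3.51, 19.9 and 36.4 CPM in the wild-type group and 5.55, 25.5 and 37.6 CPM in the Parg group. Its lowest value rested on 10 counts in embryo 2-3, the shallowest library (exact binomial 95% interval 1.68 to 6.45 CPM), and its log2 fold change was 0.16 ± 0.48 (SE).

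Of the H3K4 demethylases, Kdm5b (NM_152895) was the most abundant member, with a mean CPM above that of 99.2% of the transcripts tested. It lay at 745, 981 and 1240.3 CPM in the wild-type group and at 463, 894 and 1329.7 CPM in the Parg group. In the Parg group 7 of 9 embryos were below the wild-type median. The 3 embryos of father 8, at 647, 463 and 634 CPM, were the lowest of all 18, and embryo 6-1 was the highest. The share of all transcripts with either pattern was not taken. All 3 embryos of father 8 were below the wild-type mean for 33.8% of transcripts tested. The log2 fold change over all 9 was -0.18 ± 0.19 (SE, edgeR adjusted p = 0.971), and without father 8 it was 0.05.

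Kdm1a (NM_133872), also called LSD1, had the widest relative spread, with a coefficient of variation of 80.3% over 18 embryos. Its levels were 4.42, 29.3 and 47.0 CPM in the wild-type group and 2.25, 17.6 and 79.2 CPM in the Parg group. The lowest rested on 8 counts in embryo 8-1 (exact binomial 95% interval 0.970 to 4.43 CPM) and the highest, embryo 6-2, on 758 counts. Embryos with at most 10.1 CPM occurred in both groups, 3 among the wild-type and 4 among the Parg embryos. The log2 fold change was -0.08 ± 0.61 (SE). Embryo 6-2 was also the embryo with most Ovgp1 counts. Ovgp1 is 1 of 9 matched oviduct and somatic markers, and most of the others had a lower mean in the Parg group. Whether embryo 6-2 held oviduct RNA, and its part in the Kdm1a level, was not tested. Without embryos 6-2 and 6-3 the log2 fold change of Kdm1a was -0.42.

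The H3K27 demethylases differed in their spread. Kdm6a (NM_009483), an X-linked gene, was at 29.4, 36.6 and 65.7 CPM in the wild-type group and at 7.90, 60.4 and 114 CPM in the Parg group. In the Parg group 3 embryos (6-1, 7-2 and 8-2) were below the wild-type range and 4 (6-2, 7-1, 7-3 and 8-3) above it. Each Parg(110)-/- father had at least 1 embryo below and 1 above. At least 7 of 9 Parg embryos outside the wild-type range was found for 141 of the 15333 transcripts tested (0.92%) and for 75 of the 5171 whose mean lay within the members' range (1.45%), and Kdm6a was the only member among them. The coefficient of variation was 32.3% in the wild-type and 64.5% in the Parg group, a ratio of 2.00. That ratio was reached by 6.14% of the transcripts tested and by 6.96% of those within the members' range of means. The median ratio was 1.13 over all transcripts tested and 1.14 within that range, so the Parg group was more variable in general. The gene was singled out after its values were seen, and no test was made of the difference in spread. For the mean level, the log2 fold change was 0.35 ± 0.42 (SE, edgeR adjusted p = 0.971), and the exact two-sided permutation p of the mean log2 level was 0.960 (n = 9 each).

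Kdm6b (NM_001017426), the autosomal H3K27 demethylase, was at 117, 149 and 298 CPM in the wild-type group and at 109.5, 190.2 and 317 CPM in the Parg group. Only embryo 8-1 was below and only embryo 8-3 above the wild-type range. Its log2 fold change was 0.15 ± 0.27 (SE, edgeR adjusted p = 0.982), and its coefficient of variation was 37.3% and 36.5%. Per kb it exceeded Kdm6a in every embryo, by 1.59-fold to 6.97-fold in the wild-type group and by 1.62-fold to 13.7-fold in the Parg group.

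Because Kdm6a has a Y-linked relative, Uty, and the H3K4 demethylase Kdm5c has one in Kdm5d, the Y-linked genes were read in each embryo. Kdm5d had counts in 4 of 9 wild-type embryos (36, 61, 182 and 2 counts in embryos 1-3, 2-1, 3-1 and 3-2) and in none of 9 Parg embryos. Over the groups this was 281 counts against 0, at least 88.8-fold higher in the wild-type group with the floor set at 3 counts over the group. Embryo 3-1 held 182 of these counts, and without it the bound was 34.0-fold. Of the wild-type embryos, 5 of 9 were also at 0. Kdm5d passed the filter on low counts only through wild-type embryos. The labels do not give embryo sex, so these bounds are a description only. Uty had more than 3 counts in 4 wild-type embryos and in 1 Parg embryo (8-2). Of 3 further Y-linked genes, added after these values were seen, Ddx3y had more than 3 counts in 5 wild-type embryos and in 0 Parg embryos (means of 1.31 and 0.0778 CPM). Usp9y and Eif2s3y had more than 3 counts in 5 and 4 wild-type and in 4 and 3 Parg embryos. X-linked Kdm5c was at 85.5 ± 43.4 and 73.9 ± 36.6 CPM (SD, n = 9 each). The part of embryo sex in the Kdm6a and Suv39h1 levels was not tested.

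Family by family, no member passed an adjusted p of 0.1 (30 tests, edgeR). The background was 1 of 14377 transcripts for father 6 (0.00696%) and 0 for father 7 (0%) and father 8 (0%). At an unadjusted p below 0.05 there were 2 of 30 member tests, 6.67%, against 8.29% of all transcripts in the 3 comparisons; these 2 were Ezh2 under father 6, at 358 ± 45.1 CPM against 213 ± 80.3 CPM (log2 fold change 0.77 ± 0.33, SE, edgeR adjusted p = 0.690), and Kdm5b under father 8, at 581 ± 103 CPM against 980 ± 188 CPM (-0.76 ± 0.25, SE, edgeR adjusted p = 0.556). All 3 embryos were below the wild-type mean for 0 of 10 members under father 6, against 30.5% of all transcripts tested, for 1 (Kdm5b) under father 7, against 31.4%, and for 5 (Ezh2, Eed, Trim28, Kdm1a and Kdm5b) under father 8, against 33.8%. The summed level of the 10 members was 1607 to 1877 CPM in the embryos of father 8 and 1799 to 2748 CPM in the other 15 embryos. Kdm5b had the highest mean in this sum and the largest difference in it. Its mean was 581 CPM under father 8 against 980 CPM in the wild-type group. Kdm6a (66.0 against 45.3 CPM) and Kdm6b (205 against 176 CPM) had a higher mean under father 8 than in the wild-type group. The other members had a lower one, Suz12 only slightly (417 against 423 CPM).

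Single embryos of Parg(110)-/- fathers were also each set against the 9 wild-type embryos, a comparison with 1 embryo in an arm, whose spread is assumed to be that of the wild-type embryos. None of 90 member tests passed an adjusted p of 0.1 in edgeR, where 97 of 165913 tests over all transcripts did (0.0585%). At an unadjusted p below 0.05 there were 5 of 90 (5.56%), against 5.72% of all. They were Kdm6a in embryo 7-2 (log2 fold change -2.47 ± 1.00, SE) and in embryo 8-3 (1.39 ± 0.66), Kdm1a in embryo 8-1 (-3.61 ± 1.68), Kdm5b in embryo 8-2 (-1.09 ± 0.45) and Eed in embryo 8-3 (-2.34 ± 1.02). DESeq2 called 1 of 90, Kdm6a in embryo 7-2 at 7.90 CPM (DESeq2 adjusted p = 0.00922, edgeR adjusted p = 0.487), where it called 4.15% of all tests.

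Pairs of members showed no common pattern across embryos. Over the 45 pairs of members the Spearman correlation of log2 CPM after TMM scaling, across 18 embryos, had a median of -0.01, and 22 were above 0. The highest was 0.50 between Suz12 and Kdm6b, followed by 0.47 for Trim28 with Kdm1a and 0.47 for Setdb1 with Kdm5b. The lowest was -0.52 between Eed and Kdm6b, which was below 0 within the wild-type group (-0.63) and within the Parg group (-0.53). All of these values share the library of each embryo, and they are given as a description. The members were also set beside the 5171 transcripts with a mean between the lowest and highest member (22.2 to 920 CPM). The members' median coefficient of variation was 37.5% against 50.6% in the wild-type group and 48.1% against 58.6% in the Parg group. Levels were not matched within that range, and the part of level in this difference was not tested.

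Among 7646 transcripts at a mean of at least 10 CPM, the patterns most like the members' were the following, by Spearman correlation of TMM-scaled log2 CPM over 18 embryos. Kdm6b had the closest, Hnrnpul2 (0.85) and Tmcc3 (0.85). Those of Kdm1a were Taf9 (0.84) and Ascc2 (0.80), and those of Ezh2 were Ash2l (0.83), a core subunit of H3K4 methyltransferase complexes, and Dnajc12 (0.76). Suv39h1 was followed by Blcap (0.78) and Sh3glb1 (0.75), Setdb1 by Dedd (0.77) and Cript (0.74), and Suz12 by Esyt1 (0.75) and the transcript NM_207243 (0.72). Trim28 was most like BC005537 (0.73) and Cenps (0.72), Eed most like Rsrp1 (0.71) and Fbxw14 (0.70), Kdm5b most like Eef1a1 (0.71) and Rab11fip5 (0.71), and Kdm6a most like Sipa1l2 (0.70) and Tnfaip8 (0.70). Each is among the highest of 7646 correlations and is given as a description.

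Other genes of histone methylation and Polycomb were read from 8 lists. Of 98 listed, 95 were matched to a transcript and 87 passed the filter on low counts. None passed an adjusted p of 0.1 in edgeR, DESeq2 or limma, and 7 (2 higher, 5 lower) had an unadjusted p below 0.05, 8.05% against 5.8% of all transcripts. Of the 5 lower, at least Kdm5d and Yaf2 passed that filter only through wild-type embryos. The median log2 fold change of the 87 was -0.01, beside -0.02 over all transcripts tested. By list, the median ran from -0.22 for the 19 JmjC demethylases to 0.18 for the 9 methyltransferases of H3K36, H3K79 and H4K20. None of the 8 partners of Polycomb repressive complex 2 (among them Jarid2, Mtf2 and Phf1), of the 11 H3K9 methyltransferases and readers or of the 4 tested LSD family members and partners had an unadjusted p below 0.05. The most abundant by CPM were the PRC1 subunit Bmi1, at 1518 ± 257 and 1595 ± 344 CPM (SD, n = 9 each), and the H3K4 methyltransferase Kmt2c, at 1218 ± 158 and 1381 ± 177 CPM.

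The lowest p-values in the upward direction belonged to Kdm7a, a demethylase of H3K9 and H3K27, Phc1, a subunit of Polycomb repressive complex 1 (PRC1), and Kmt5c, an H4K20 methyltransferase. Kdm7a was at 117, 201 and 367 CPM (lowest, median, highest) in the wild-type group and at 183, 305 and 458 CPM in the Parg group, and the groups overlapped (log2 fold change 0.63 ± 0.23, SE, edgeR adjusted p = 0.543). Phc1 was at 13.3, 42.3 and 83.5 CPM and at 0.843, 57.5 and 625 CPM, with embryos 7-2 (625 CPM) and 6-1 (383 CPM) far above the rest (1.87 ± 0.73, SE, edgeR adjusted p = 0.653). Kmt5c was at most 4.86 CPM in the wild-type and 38.2 CPM in the Parg group (edgeR adjusted p = 0.866).

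In the downward direction they belonged to Kdm5d, given above (edgeR adjusted p = 0.334), Yaf2, a partner of PRC1, and Rbbp5, a core subunit of H3K4 methyltransferase complexes. Yaf2 had counts in 5 of 9 wild-type embryos, up to 22.1 CPM, and in 1 of 9 Parg embryos, at 0.396 CPM, so 4 wild-type embryos also had none (edgeR adjusted p = 0.334). Kdm5d and Yaf2 passed the filter on low counts only through wild-type embryos, so their p-values are no support for a difference. Rbbp5 was at 1.15, 18.3 and 98.8 CPM in the wild-type group and at 0.940, 6.74 and 18.1 CPM in the Parg group (log2 fold change -1.85 ± 0.69, SE, edgeR adjusted p = 0.599). The other 2 with an unadjusted p below 0.05 were the PRC1 subunit Cbx8, at 10.9 ± 27.9 and 0.438 ± 1.27 CPM in the wild-type and Parg groups, and the methyltransferase Smyd3, at 15.8 ± 11.8 and 3.94 ± 4.32 CPM (SD, n = 9 each). Cbx8 had counts in 4 wild-type embryos, with a median of 0 and 84.8 CPM in embryo 3-2, without which the wild-type mean was 1.64 CPM.

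**Figure D4:**
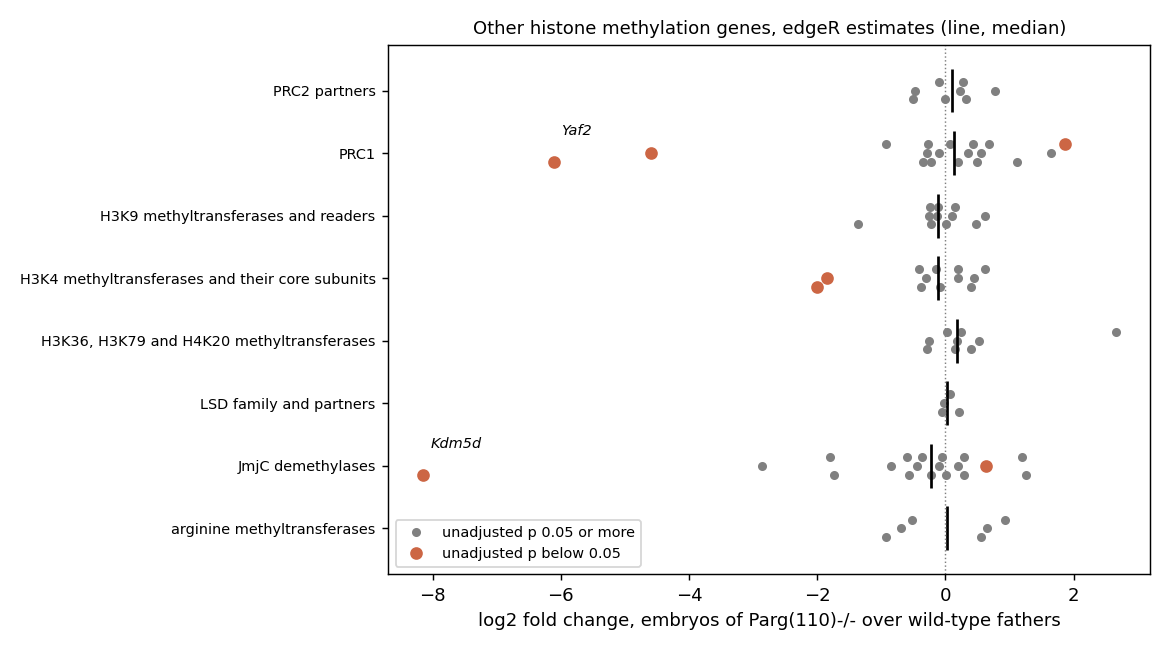
Log2 fold change (horizontal, edgeR, Parg(110)-/- over wild-type fathers) of the 87 tested genes of 8 lists (vertical), with orange points at an unadjusted p below 0.05, grey points at 0.05 or more, and a line at each list's median. The medians lie between -0.22 and 0.18, and Kdm5d and Yaf2, which had counts in few embryos, are far from the rest.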

How the data were processed

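RNA of each 2-cell embryo was amplified to cDNA and sequenced. The authors mapped the reads to mm9 with RUM (at most 1 mismatch, unique reads only) and deposited the raw counts of each RefSeq transcript, not normalized; the submitters' processing notes name DESeq 1.10.0. The counting tool is not given in the sources used here. Amplification can widen the spread between embryos, and a read is counted on every isoform: the second rows of Ezh2 and Suz12 differed from the member rows by at most 1.44% and 2.95%, and those of Setdb1 not at all. After TMM scaling, edgeR 4.0.16 (quasi-likelihood test, R 4.3.3) was run over transcripts that reached 10 counts in 3 or more embryos (1 or more for single-embryo tests), with Benjamini-Hochberg adjustment over all of them and a threshold of 0.1. The standard error was taken as the size of the log2 fold change over the root of F. Alternatives used DESeq2 1.42.0 and limma 3.58.1. Exact permutations used the mean of log2(CPM + 0.5). The script was tested on simulated data. Symbols of 26136 of 26823 transcripts came from RefSeq gene tables, and gene lengths from GENCODE vM1. Depth was 2852858 to 13355161 counts per embryo, at which 3 counts are 0.225 to 1.05 CPM. Groups came from the sample labels. The members and lists were chosen with earlier results of these data known. Named genes were all members, the 3 smallest p-values in each direction among the other listed genes, the 2 transcripts most correlated with each member, and Parg. Embryo numbers were not used to pair samples, since they did not covary across groups.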

Additional observations from a re-analysis of the deposited data

Results flagged for a closer look

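In 24 sets of 9 embryos examined (10 members, their sum and the total count in each group), 1 had an embryo standing apart by Dixon's test, and chance flags about 1 in 20. It was Kdm1a in embryo 6-2, at 79.2 CPM, the highest of the Parg group, with the next at 38.3 CPM. In embryo 6-2 the oviduct gene Ovgp1 was at 428 CPM, while most other oviduct and somatic markers had a lower mean in the Parg group.

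For Ezh2, all 3 embryos of father 6 were above the wild-type mean and all 3 of father 8 below it, and the mean under father 6 was higher than under father 8 by 196 CPM. Of all transcripts tested, 7.32% had all 3 embryos of father 6 above and 33.8% all 3 of father 8 below. The difference between the fathers was not tested. It was 1 of 30 pairs of fathers and members examined. Embryos 6-2 and 6-3 were those with most Ovgp1 counts, while embryo 6-1, with 33 Ovgp1 counts, had Ezh2 at 373 CPM. Whether these embryos held oviduct RNA, and its part in their Ezh2 levels, was not tested.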

How the results depend on the processing

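No member was called over 18 embryos, and none under any of the alternatives run, which were RLE size factors, library totals alone, DESeq2, limma with the father as a random effect, counts summed per father, other filters, a threshold of 0.05, and every father or embryo left out (0 to 0 calls). The same held for the other listed genes (0 to 0). With embryos 6-2 and 6-3 left out, an alternative chosen after seeing the data, 0 members and 0 transcripts were called. Over all transcripts edgeR called 0, DESeq2 38, and edgeR with a library left out 0 to 5 (5 without father 6, 2 without embryo 6-1 and 2 without embryo 7-1). The embryo number as a replicate block gave 0 calls and changed none; the median correlation of deviations from the group means was 0.00072 for embryos with the same number across groups and -0.0018 for other numbers, so the numbers do not pair the embryos. In the families no member was called in any alternative, with 0 to 0 when a wild-type father was left out, while the transcripts called, 1 in all, were 834 with DESeq2 and 36 with no filter (0 without father 1 or 3). In single embryos DESeq2 called 1 member, and leaving out a wild-type father gave 0 to 0; the 97 transcripts called were 6884 with DESeq2, 39 at a threshold of 0.05 and 41 without father 3. The cause of these differences was not tested.

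Of 360 member values 320 kept their direction and side of the threshold and 40 changed sign, all uncalled. With a father or embryo left out the log2 fold change ran from -0.36 to 0.33 for Ezh2, -0.58 to 0.24 for Eed, -0.058 to 0.15 for Suz12, 0.02 to 0.35 for Suv39h1, -0.14 to 0.27 for Setdb1, -0.49 to 0.24 for Trim28, -0.63 to 0.30 for Kdm1a, -0.37 to 0.049 for Kdm5b, 0.16 to 0.50 for Kdm6a and -0.030 to 0.45 for Kdm6b. Other changes of sign were Ezh2 at -0.11 without embryos 6-2 and 6-3, Suz12 at -0.0029 and Kdm6a at -0.10 in limma, Trim28 at -0.02 in the mean log2 level of both permutations, and Kdm1a at 0.040 with counts summed per father. Values resting on few counts, such as 8 for Kdm1a in embryo 8-1 and 10 for Suv39h1 in embryo 2-3, are limited by depth as well as by the spread between embryos.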
